A study of Mus musculus with 4 samples.

Results

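The auxiliary subunits of the AMPA receptor were examined in RNA sequencing (RNA-seq) of cultured mouse astrocytes. The genes were taken from a fixed list of 10 names, matched to the gene names of the deposited table. Of these, 9 had a row among the 25393 genes listed, and Cacng3 was not analysed here. The 9 genes were Cacng2, Cacng4, Cacng5, Cacng7, Cacng8, Cnih2, Cnih3, Gsg1l and Shisa9, and the 8 other than Cacng2 had a mean of at least 1 normalized count and were tested. Astrocytes came from cortex and hippocampus of untreated C57BL/6 pups on postnatal day 1, which were either wild type (WT) or carried a constitutive tet1-/- genotype (Tet1 knockout, KO). Each isolation used 2 mice, and the cells grew for about 7 days, were purified by shaking at 260 rpm and were collected after another 24 h. There were 2 libraries for each genotype. The study calls its RNA-seq repeats biological and describes more of them per genotype than were analysed here. No label ties a library to a culture of its own, so p-values measure the spread between these libraries only. A culture pooled from 2 pups does not show single animals.

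AMPA receptors are glutamate-gated cation channels built from the pore subunits GluA1 to GluA4, which the genes Gria1 to Gria4 encode. Auxiliary subunits sit in the membrane beside the pore, carry the receptor to the cell surface and set how fast it opens, desensitizes and recovers. The transmembrane AMPA receptor regulatory proteins (TARPs) are divided into type I (Cacng2, Cacng3, Cacng4 and Cacng8) and type II (Cacng5 and Cacng7). Cornichon homologues (Cnih2 and Cnih3) slow the closing of the channel, and GSG1L and CKAMP44 (Shisa9) are further partners that act mainly on desensitization and recovery. Most of these proteins were described in neurons, while some TARPs, the type II TARP of Cacng5 among them, are also known from glia.

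The libraries held 18749610 to 22673555 reads on genes, and values are given as normalized counts, which are reads divided by 1 size factor per library. Tet1 reached 266 and 121 normalized counts under the WT label and 173 and 463 under the KO label, a log2 difference of 0.66 (standard error 0.65, adjusted p = 0.691, limma). The mean of Tet1 was thus not lower under the KO label, so the latter are called KO-labelled libraries and each direction rests on that label. The summed FPKM (reads scaled to gene length and to the depth of the library) of 8 astrocyte markers was 1346 and 1325 in WT, and 2496 and 340 in the KO-labelled libraries. Gfap, the intermediate filament of astrocytes, set much of this, with 1871 FPKM in KO-labelled replicate 1 and 117 in replicate 2. KO-labelled libraries were over 2-fold apart at 28.6% of 12868 genes (mean of 50 or more), and the WT libraries at 10.7%. Results of auxiliary subunit genes that rest on KO-labelled replicate 2 are given with and without it. Xist, named after its values were seen, was at 8.54 and 0.92 normalized counts in WT against 2896 and 13367 in the KO-labelled libraries, so that pup sex cannot be told apart from the label.

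Promoter sequences are shown for the 2 auxiliary subunit genes that differed most clearly between the labels, Cacng5 and Cnih2, and for the most abundant one, Cacng7. They run from 250 bases before to 50 bases after the transcription start, come from RefSeq on GRCm38.p6 and are written 5′ to 3′ on the strand of the gene. Capitals mark CpG dinucleotides, the sites whose methylated form Tet enzymes oxidize. Cacng5 has 2 annotated starts, at chr11:107915006-107915305 and chr11:107911313-107911612 on the minus strand. The windows of Cnih2 and Cacng7 lie at chr19:5098472-5098771 on the minus strand and chr7:3332575-3332874 on the plus strand.
Cacng5, first start: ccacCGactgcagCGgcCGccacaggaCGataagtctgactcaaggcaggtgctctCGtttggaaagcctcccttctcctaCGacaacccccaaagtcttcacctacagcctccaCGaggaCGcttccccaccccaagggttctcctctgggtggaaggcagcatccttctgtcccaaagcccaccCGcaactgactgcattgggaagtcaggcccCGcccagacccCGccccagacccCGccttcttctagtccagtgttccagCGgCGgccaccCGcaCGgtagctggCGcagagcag
Cacng5, second start: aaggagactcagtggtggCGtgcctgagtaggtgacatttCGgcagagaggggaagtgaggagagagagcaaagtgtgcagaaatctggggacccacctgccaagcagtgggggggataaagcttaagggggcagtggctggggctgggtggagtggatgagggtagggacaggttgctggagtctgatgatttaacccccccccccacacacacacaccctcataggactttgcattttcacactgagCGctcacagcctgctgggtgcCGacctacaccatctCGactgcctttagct
Cnih2: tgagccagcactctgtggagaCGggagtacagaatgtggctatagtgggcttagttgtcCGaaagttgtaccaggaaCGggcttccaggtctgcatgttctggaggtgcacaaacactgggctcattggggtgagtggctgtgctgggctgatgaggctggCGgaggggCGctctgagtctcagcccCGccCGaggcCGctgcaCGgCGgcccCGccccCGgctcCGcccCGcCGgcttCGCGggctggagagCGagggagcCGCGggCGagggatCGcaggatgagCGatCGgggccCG
Cacng7: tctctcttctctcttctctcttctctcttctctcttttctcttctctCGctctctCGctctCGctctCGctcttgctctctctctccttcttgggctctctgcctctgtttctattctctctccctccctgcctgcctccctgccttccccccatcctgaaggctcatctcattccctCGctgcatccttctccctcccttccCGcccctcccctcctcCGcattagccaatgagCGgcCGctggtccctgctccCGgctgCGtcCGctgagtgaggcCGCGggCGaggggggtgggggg

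RefSeq promoters were found for 7 of the 10 genes, Cacng4, Gsg1l and Shisa9 being the others, and gave 8 windows of 300 bases. Over all 32851 such promoters the median number of CpG dinucleotides was 7. The first Cacng5 window held 17 and the second held 5, so the 2 starts of this gene differ in CpG content. The Cnih2 window held 25 and the Cacng7 window 15. Cnih3 had the most CpG dinucleotides, 42, a number reached by 3.03% of all promoters. Cacng8 had the fewest, 2, with 9 for Cacng3 and 20 for Cacng2. The RefSeq starts of these last genes lie 3359, 1252 and 748 bases inside the genes as GENCODE draws them, and the second Cacng5 start 3693 bases inside, so these windows are not those of the outermost annotated start. A GC box core (GGGCGG on either strand) occurred 3 times in the Cnih2 window, 2 times in the first Cacng5 window and 1 time each for Cacng7 and Cnih3, against 35.7% of all promoters with at least 1. No window held TATAAA on either strand, a hexamer found in 13.6% of all promoters. CpG-rich windows thus belonged both to genes that were lower in the KO-labelled libraries and to genes that were not.

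The first question was which auxiliary subunits these cultures expressed. Cacng7 dominated in every library, and levels between genes are compared here as FPKM. Cacng7, whose product γ-7 is a type II TARP, had 102 and 101 FPKM in WT and 115 and 67.0 in the KO-labelled libraries, above 98.2% of all listed genes by its mean. The next highest value of any other auxiliary subunit in any library was 15.0 FPKM, for Cnih2 in WT replicate 2. Cacng7 made up 75.3% and 69.8% of the summed FPKM of the auxiliary subunit genes in WT, and 80.2% and 77.7% in the KO-labelled libraries.

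Below Cacng7, the order of levels in WT was not settled by these libraries. Cnih2 had 11.2 ± 5.34 FPKM (SD, n = 2), Cacng8 had 10.2 ± 0.66 and Shisa9 had 9.17 ± 2.07 in WT, and the values of neighbours in this order overlapped. Cacng5 (5.37 ± 3.45 FPKM in WT, SD, n = 2) and Cacng4 (2.36 ± 1.54) came next and overlapped each other as well, and the higher value of Cacng5 (7.81) lay above the lower one of Shisa9 (7.71). Cnih3, Gsg1l and Cacng2 lay far lower, with WT means of 0.13, 0.23 and 0 FPKM. In the KO-labelled libraries, Cacng8 had 7.89 and 14.4 FPKM, Cnih2 4.65 and 2.45, Shisa9 11.2 and 0.392, Cacng4 3.51 and 1.04, and Cacng5 0.794 and 0.442. Cacng5 therefore stood above Cacng4 in both WT libraries and below it in both KO-labelled libraries.

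**Figure D1:**
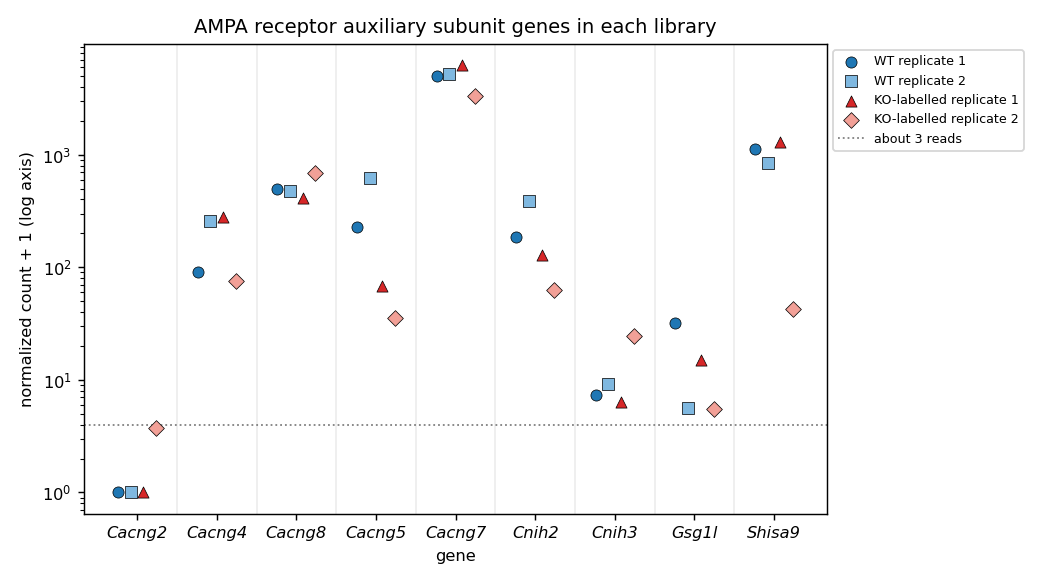
Normalized count + 1 (log axis) of the 9 listed auxiliary subunit genes in the 4 libraries, 1 point per library, with a dotted line at about 3 reads. Cacng7 lies highest in every library, both KO-labelled points of Cacng5 and Cnih2 lie under both WT points, and Shisa9 is low in KO-labelled replicate 2 alone.

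The labels were then compared in limma, on log2(normalized count + 1), for the 22094 genes whose mean reached 1. On this scale differences of low genes come out too small. At an adjusted p under 0.05, limma called none of the 8 tested auxiliary subunit genes, as 0 of all genes did (0%), while 3032 genes had an unadjusted p under 0.05 and DESeq2 called 1104 genes. Cacng5 and Cnih2 were lower in the KO-labelled libraries at an unadjusted p under 0.05, or 2 of 8, against 9.18% of all tested genes. None of the 8 was higher at that threshold, against 4.54% of all genes. After quantile normalization the split over all genes was 1371 higher and 1537 lower, against 1004 and 2028 with the deposited scaling. Both KO-labelled libraries lay below both WT libraries for 2 of the 8 genes, again Cacng5 and Cnih2, and above them for 0, against 25.4% and 22.5% of all tested genes. A share of 2 in 8 without overlap is thus near the background of these libraries.

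Leaving out a library changed which genes passed the unadjusted threshold, in fits where 1 label has a single library that is assumed to vary like the pair of the other label. Without WT replicate 1, Cacng5 alone was lower, or 1 of 8 against 3.90% of all genes. Without WT replicate 2 there were 0 of 8 (4.06% of all genes) and without KO-labelled replicate 2 also 0 of 8 (9.28%), although the log2 difference of Cacng5 was still -2.20 and -2.46. Without KO-labelled replicate 1, Cacng5 and Shisa9 were lower, or 2 of 8 against 13.7%. DESeq2 on the recovered reads called 1 of the 8, Cacng5, lower at an adjusted p under 0.05. The share was 4.93% of the 16525 genes to which DESeq2 gave an adjusted p. At that threshold edgeR called 0, with 2 of 8 lower at an unadjusted p under 0.05 against 8.14% of all genes. The median log2 difference was -0.36 over the 8 genes and -0.07 over all tested genes. That median was -1.15 without KO-labelled replicate 1 and -0.04 without KO-labelled replicate 2. An exact permutation test of 2 libraries against 2 cannot give a two-sided p below 0.333.

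**Figure D2:**
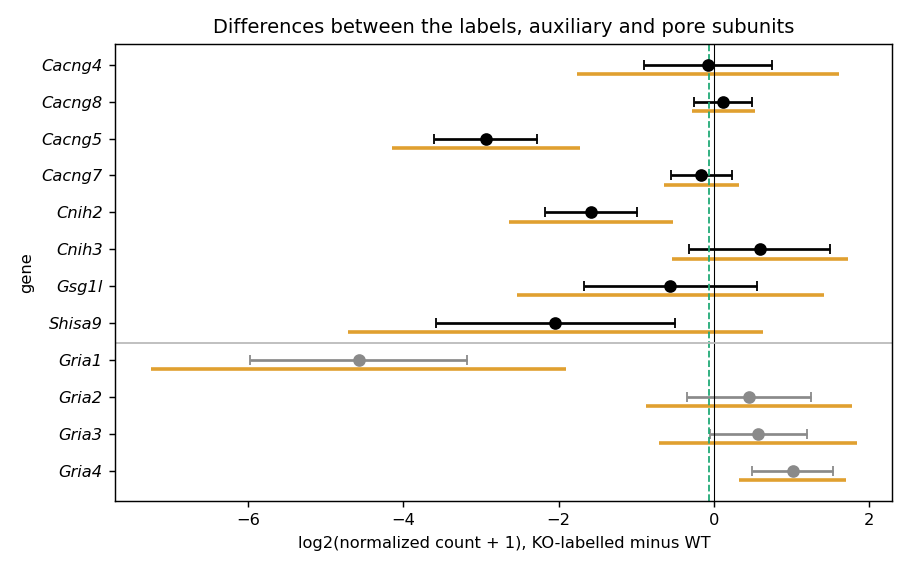
Log2 difference (normalized count + 1, KO-labelled libraries minus WT) of the 8 tested auxiliary subunit genes (black) and the 4 pore subunit genes (grey), with its standard error as a bar, and in orange the range of the 4 single differences between a KO-labelled library and a WT library. The dashed line is the median of all tested genes, -0.07, and only Cacng5, Cnih2, Gria1 and Gria4 have orange ranges that do not cross 0.

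Among type II TARPs, Cacng5 (ENSMUSG00000040373) encodes γ-5. On GRCm38 it covers bases 107874605 to 107915055 of chromosome 11, minus strand, a stretch free of overlapping gene models. Cacng5 had 225 and 624 normalized counts in WT against 67.4 and 34.3 in the KO-labelled libraries. Both KO-labelled libraries lay below both WT libraries, and the mean was 425 ± 282 (SD, n = 2) against 50.8 ± 23.5 (SD, n = 2), an 8.35-fold difference. The values rest on 38 to 679 reads. The log2 difference was -2.94 (standard error 0.66, adjusted p = 0.206 from limma). Single differences between the 4 library pairs ran from -4.15 to -1.72. The difference was -3.07 in DESeq2 (adjusted p = 0.000726) and -3.08 in edgeR (adjusted p = 0.209). Leaving out single libraries put it between -3.67 and -2.20.

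Microglial markers moved with Cacng5 across the libraries. Of 6 such markers, 5 were lower in the KO-labelled libraries at an unadjusted p under 0.05, against 9.18% of all tested genes. The summed FPKM of the 6 was 17.6 and 33.3 in WT against 2.33 and 0.978. The widest difference was that of C1qa, a complement component, with 268 and 442 normalized counts in WT against 33.2 and 5.41. Csf1r, the receptor that microglia need to survive, had 175 and 478 normalized counts in WT against 35.3 and 44.2 in the KO-labelled libraries. Cx3cr1, their fractalkine receptor, had 112 and 349 in WT, and 23.5 and 11.7. P2ry12 was at 0 in KO-labelled replicate 1 alone, and no other marker of this list was at 0 in any library. Tmem119, the marker that did not pass, had 2.13 and 38.6 in WT against 8.56 and 1.80, and its groups overlapped. Like Cacng5, C1qa, Csf1r and Cx3cr1 were highest in WT replicate 2 and low in both KO-labelled libraries.

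Oligodendrocyte progenitor markers gave a mixed picture beside Cacng5, with 3 of 6 log2 differences positive and 3 negative. Their summed FPKM was 151 and 226 in WT and 369 and 230 in the KO-labelled libraries, with 1 of 6, Cspg4, lower at an unadjusted p under 0.05. Cspg4, the proteoglycan NG2, had 330 and 413 normalized counts in WT against 39.6 and 128 in the KO-labelled libraries. Pdgfra, the growth factor receptor of these progenitors, had 163 and 578 in WT, and 82.4 and 182. Like Cacng5, Cspg4 and Pdgfra were highest in WT replicate 2 and below their own log2 means in both KO-labelled libraries. Unlike those of Cacng5, the labels of Pdgfra overlapped, as WT replicate 1 (163) lay below KO-labelled replicate 2 (182). Olig2 and Olig1, transcription factors of this lineage, went the other way from Cacng5. Olig2 had 1391 and 2290 normalized counts in WT against 2738 and 3406 (log2 difference 0.77), and Olig1 had 5256 and 8033 against 15319 and 7074 (0.68). Sox10 was at 0 in WT replicate 1 and at most 10.1 elsewhere. Of 8 astrocyte markers, 6 had a negative and 2 a positive log2 difference. Only Slc1a2 was lower at an unadjusted p under 0.05, against 9.18% of all tested genes. Slc1a2, the astrocyte glutamate transporter GLT-1, had 11394 and 5793 normalized counts in WT against 3078 and 597. Gja1 went the other way, with 3557 and 5231 in WT against 7361 and 6344. The part of these cell types in the difference of Cacng5 was not tested, and in bulk RNA fewer cells of a type and less RNA per cell cannot be told apart.

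**Figure D3:**
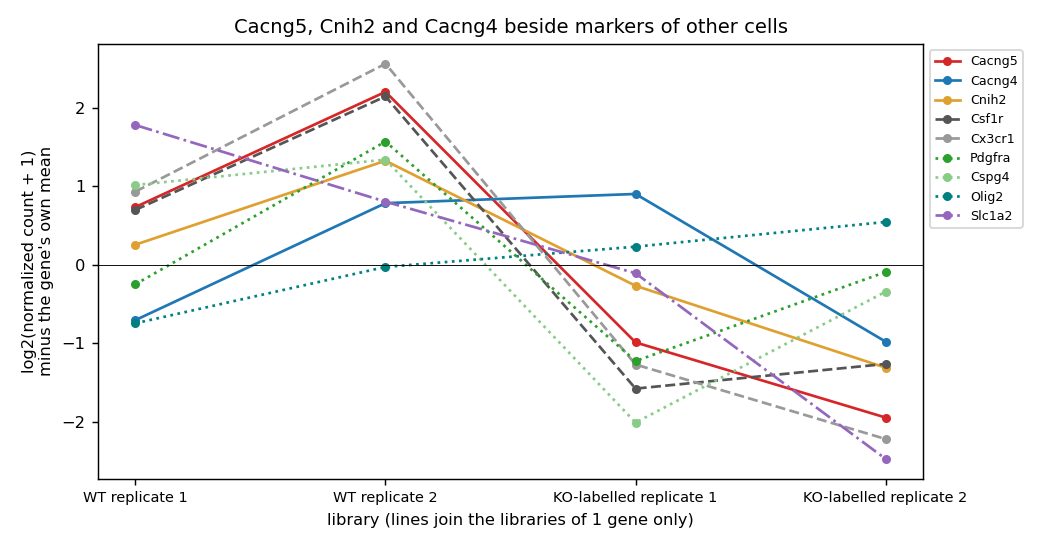
Log2(normalized count + 1) minus the mean of each gene over the 4 libraries, for Cacng5, Cacng4 and Cnih2 (solid), the microglial markers Csf1r and Cx3cr1 (dashed), the progenitor markers Pdgfra, Cspg4 and Olig2 (dotted) and the astrocyte gene Slc1a2 (dash-dotted). Cacng5, Csf1r and Cx3cr1 are highest in WT replicate 2 and below their own means in both KO-labelled libraries, as are Cnih2, Pdgfra and Cspg4, though the labels of Pdgfra overlap. Cacng4 is not, and Olig2 is higher in both KO-labelled libraries.

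Cacng7 (ENSMUSG00000069806), the other type II TARP gene, lies on chromosome 7 from 3332955 to 3368221 on the plus strand. It had 4982 and 5164 normalized counts in WT against 6217 and 3303 in the KO-labelled libraries. One KO-labelled library lay above and the other below both WT libraries. The mean was 5073 ± 129 in WT (SD, n = 2) against 4760 ± 2060 (SD, n = 2) in the KO-labelled libraries. Its log2 difference was -0.16 (standard error 0.39, adjusted p = 0.883 from limma). It became 0.29 without KO-labelled replicate 2. Cacng7 shares its place on chromosome 7 with Gm44256 on the same strand, but no exonic base is common to both.

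Type I TARP genes did not separate by label. Cacng8 (ENSMUSG00000053395, chromosome 7 from 3390683 to 3415648, plus strand) encodes γ-8, the TARP best known from hippocampus. It had 498 and 474 normalized counts in WT against 410 and 680 in the KO-labelled libraries, with 1 of the latter on each side of WT. The log2 difference was 0.12 (standard error 0.37, adjusted p = 0.911 from limma). It was -0.24 without KO-labelled replicate 2. Gm44151 overlaps Cacng8 antisense, without common exonic bases and with at most 11.7 normalized counts. Gm23450, on the same strand, shares 91 exonic bases with Cacng8 and was not analysed here.

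Cacng4 (ENSMUSG00000020723, chromosome 11 from 107732357 to 107794557, minus strand) encodes γ-4. It had 90.7 and 257 normalized counts in WT against 278 and 74.8 in the KO-labelled libraries, so that each label held 1 high and 1 low library. Its log2 difference was -0.08 (standard error 0.83, adjusted p = 0.979 from limma). The sign turned to 0.27 under quantile normalization and to 0.86 without KO-labelled replicate 2. Cacng2 (ENSMUSG00000019146, chromosome 15 from 77991748 to 78120028, minus strand) encodes stargazin, the TARP whose loss causes the stargazer phenotype. Stargazin mRNA was at the limit of detection, with 0 reads in both WT libraries and KO-labelled replicate 1 and 3 reads in KO-labelled replicate 2. A count of 0 allows up to 3 reads (one-sided 95% limit), or 2.76 to 3.21 normalized counts in the libraries at 0, for counting error only, so no fold is given.

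TARP genes lie in clusters, which allowed neighbours to be compared within a library. On chromosome 11, Cacng1, Cacng4 and Cacng5 follow each other with gaps of 15.8 and 80.0 kb and no protein-coding gene between them. Cacng1, which encodes a calcium channel subunit of skeletal muscle, was at 0 to 1.07 normalized counts. The ratio of Cacng5 to Cacng4 in FPKM was 2.31 and 2.27 in WT, and 0.226 and 0.427 in the KO-labelled libraries. Although each of these genes differed more than 2-fold between the WT libraries, their ratio did not, and it was lower in both KO-labelled libraries. On the log2 scale of normalized counts the ratio was 1.29 ± 0.02 in WT (SD, n = 2) against -1.57 ± 0.65 (SD, n = 2) in the KO-labelled libraries. The difference of -2.86 had an exact permutation p of 0.333, the smallest that 2 libraries against 2 allow, and this pair was chosen after its values were seen.

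On chromosome 7, Cacng7, Cacng8 and Cacng6 follow each other with gaps of 22.5 and 8.5 kb. The FPKM ratio of Cacng7 to Cacng8 was 9.60 and 10.5 in WT, and 14.6 and 4.66 in the KO-labelled libraries, which lay on both sides of WT. Cacng6, a γ subunit gene that is not counted among the TARPs, had 51.2 and 19.3 normalized counts in WT against 12.8 and 16.2 in the KO-labelled libraries. Its log2 difference was -1.08 (standard error 0.74, adjusted p = 0.571 from limma).

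Among cornichon homologues, Cnih2 (ENSMUSG00000024873) was the abundant one. The table places it on chromosome 19 from 5092871 to 5098418 on the minus strand. Cnih2 had 184 and 386 normalized counts in WT against 127 and 61.3 in the KO-labelled libraries. The groups did not overlap, with means of 285 ± 143 (SD, n = 2) and 94.3 ± 46.7 (SD, n = 2), a 3.02-fold difference. The gap between WT replicate 1 and KO-labelled replicate 1 was small, a single difference of -0.52 on the log2 scale, and the largest was -2.64. The log2 difference was -1.58 (standard error 0.59, adjusted p = 0.353 from limma), -1.60 in DESeq2 (adjusted p = 0.156) and -1.62 in edgeR (adjusted p = 0.383). Without KO-labelled replicate 2 it was -1.06. The call at an unadjusted p under 0.05 was lost with a mean of at least 10 and with quantile normalization (log2 difference -1.23). It was also lost with eBayes without a trend, with a block for the replicate number and with each library left out. As for Cacng5, both KO-labelled libraries lay below both WT libraries for 5 of the 6 microglial markers, against 25.4% of all tested genes. The part of microglia in the difference of Cnih2 was not tested. Yif1a overlaps Cnih2 antisense by 14 exonic bases in GENCODE and had 648 and 772 normalized counts in WT against 977 and 1265 in the KO-labelled libraries, a direction opposite to that of Cnih2. The sources used here do not say whether reads were counted by strand.

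Cnih3 (ENSMUSG00000026514, chromosome 1 from 181352628 to 181460641, plus strand) was near the limit of detection. It had 6.40 and 8.28 normalized counts in WT against 5.35 and 23.4 in the KO-labelled libraries. KO-labelled replicate 2 was the highest, with 26 reads (95% exact Poisson interval 17.0 to 38.1, counting error only), and the other 3 libraries had 5 to 9 reads. The log2 difference of 0.59 (standard error 0.91, adjusted p = 0.809 from limma) became -0.38 without that library. Per length, Cnih2 exceeded Cnih3 by 63.8-fold and 104-fold in WT, and by 52.9-fold and 5.82-fold in the KO-labelled libraries.

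GSG1L is an auxiliary subunit that dampens the receptor. Gsg1l (ENSMUSG00000046182, chromosome 7 from 125878420 to 126082411, minus strand) had 30.9 and 4.60 normalized counts in WT against 13.9 and 4.51 in the KO-labelled libraries. The gap between the WT libraries was nearly the widest of all, at 29 reads (95% exact Poisson interval 19.4 to 41.6) and 5 reads (1.62 to 11.7). Its log2 difference was -0.56 (standard error 1.11, adjusted p = 0.851 from limma). This is less than the gap inside the WT label, and the value was 0.70 without WT replicate 1.

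CKAMP44, the product of Shisa9, delays recovery of the receptor from desensitization. Shisa9 (ENSMUSG00000022494, chromosome 16 from 11984113 to 12270902, plus strand) had 1115 and 842 normalized counts in WT against 1303 and 41.5 in the KO-labelled libraries. KO-labelled replicate 1 was the highest of all 4 libraries and replicate 2 the lowest, a 31.4-fold gap under 1 label. A gap at least as large between the KO-labelled libraries was found for 0.497% of those 12868 genes. No annotated gene overlaps Shisa9. The mean was 979 ± 193 (SD, n = 2) against 672 ± 892 (SD, n = 2), a 1.46-fold difference. Its log2 difference was -2.04 (standard error 1.54, adjusted p = 0.600 from limma), but -0.57 in edgeR (adjusted p = 0.890) and -0.54 in DESeq2 (adjusted p = 0.907). Without KO-labelled replicate 2 the difference was 0.43, and without KO-labelled replicate 1 it was -4.51 (adjusted p = 0.168 from limma, where the spread is that of the WT pair alone). Gfap, at 174853 and 9945 normalized counts, and Aldoc, a glycolytic enzyme of astrocytes, at 20909 and 1594, were also lower in KO-labelled replicate 2 than in replicate 1. Of the 8 astrocyte markers, Gfap was 17.6-fold higher in KO-labelled replicate 1 than in replicate 2, Aldoc 13.1-fold and S100b 10.8-fold. The others were higher by 5.16-fold (Slc1a2), 3.07-fold (Aqp4), 1.79-fold (Aldh1l1), 1.58-fold (Slc1a3) and 1.16-fold (Gja1). The part of the astrocyte state in the gap of Shisa9 was not tested.

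Auxiliary subunits were then set beside the pore subunits. The summed FPKM of the listed auxiliary subunit genes was 135 and 145 in WT, and 143 and 86.2 in the KO-labelled libraries. That of Gria1 to Gria4 was 23.9 and 21.9 in WT, and 11.2 and 27.2. The ratio of the sums was 5.66 and 6.64 in WT and 12.7 and 3.16 in the KO-labelled libraries, which lay on both sides of WT. Gria1 made up 31.0% and 65.4% of the pore subunit FPKM in WT, and 15.9% and 0.325% in the KO-labelled libraries. Gria3 made up 53.5% and 28.9% in WT, and 62.9% and 86.2%. Among auxiliary subunits the leading gene was the same in every library, while among pore subunits Gria1 led in WT replicate 2 and Gria3 in the other libraries.

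**Figure D4:**
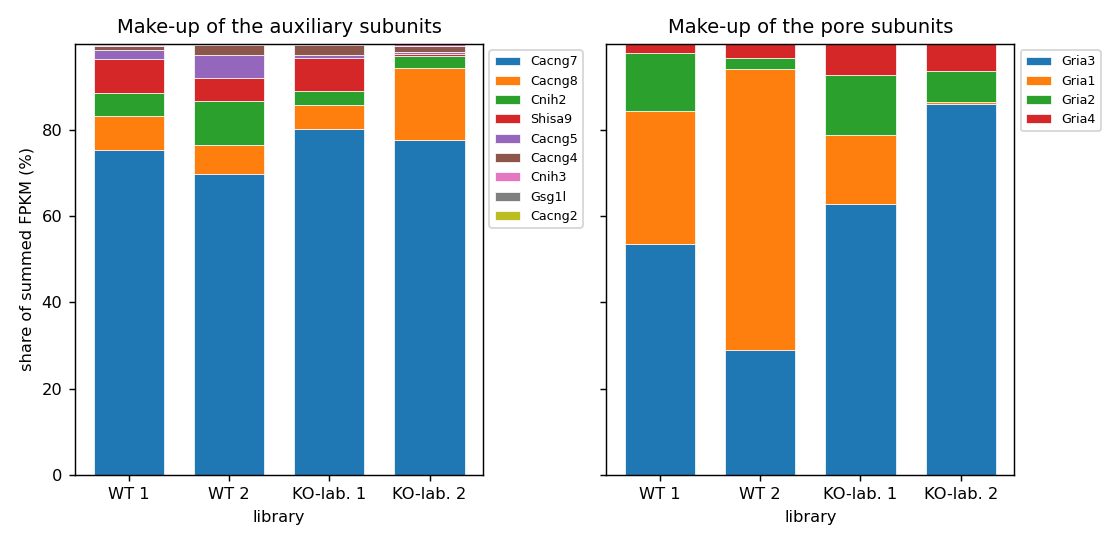
Share of the summed FPKM (percent) held by each of the 9 listed auxiliary subunit genes (left) and the 4 pore subunit genes (right), 1 bar per library. Cacng7 fills 69.8% to 80.2% of every bar on the left, whereas the Gria1 part on the right ranges from 0.325% to 65.4%.

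For the auxiliary subunit genes with a mean of at least 10, the pore subunit gene at the smallest distance was found. The distance was the root mean square difference of log2 values, each centred on its own mean over the 4 libraries. Gria1 was nearest to Cacng5 (1.46) and Shisa9 (1.38), and Gria2 to Gsg1l (0.77). Gria4 was nearest to the remaining genes, from 0.42 for Cnih3 to 1.49 for Cnih2. The nearest gene need not move the same way. Gria4 had 66.2 and 91.0 normalized counts in WT against 115 and 217 in the KO-labelled libraries, a direction opposite to that of Cnih2. Of all 15982 genes with such a mean, Vsig10 (0.013), Tecpr1 (0.016) and Tmco3 (0.018) were nearest to Cacng7, and Gm38398 (0.17), Fhit (0.21) and Gm9077 (0.25) to Shisa9. With 4 libraries these distances describe the libraries only.

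Other genes of AMPA receptor biology were counted from lists. Over all tested genes, 9.18% were lower and 4.54% higher at an unadjusted p under 0.05. Of the 4 pore subunit genes, 1 was lower at an unadjusted p under 0.05, Gria1, with 897 and 1803 normalized counts in WT against 240 and 10.8 in the KO-labelled libraries. Both other cornichon genes lay above WT in both KO-labelled libraries, as did 22.5% of all tested genes. Of the 2, Cnih1, which serves export from the endoplasmic reticulum, passed the unadjusted threshold. Cnih1 had 818 and 886 normalized counts in WT against 1558 and 1832. Of the 3 other CKAMP genes 0 passed, with a median log2 difference of -0.75. Shisa8, the one that differed most, had 142 and 120 normalized counts in WT against 178 and 25.2, a low value in KO-labelled replicate 2 as for Shisa9.

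Of 8 genes for assembly and export of the receptor, 1 was lower at an unadjusted p under 0.05, Prrt1, a membrane protein of AMPA receptor complexes, and 0 were higher (median log2 difference -0.58). Prrt1 had 300 and 384 normalized counts in WT against 183 and 91.9 in the KO-labelled libraries. Syndig1, of the same protein family, had the widest difference of that list, 2.02 (standard error 0.99, adjusted p = 0.441 from limma), with 6.40 and 41.4 in WT and 102 and 49.6. All 9 tested genes for extracellular organisers of the receptor had a positive log2 difference (median 0.88, against -0.07 over all tested genes). At an unadjusted p under 0.05, 3 were higher, against 4.54% of all tested genes, namely the neuronal pentraxin genes Nptx1, Nptx2 and Nptxr. Nptx1 was at 6.40 and 14.7 normalized counts in WT and at 50.3 and 463 in the KO-labelled libraries. Nptx2 was at 0 and 3.68 in WT and at 11.8 and 140, and Nptxr, the pentraxin receptor, at 246 and 229 against 537 and 1490. All 3 were highest in KO-labelled replicate 2, and their differences without it are not given here. Of 11 tested scaffold and traffic genes, 2 were higher at that threshold and 0 lower (median 0.18). Grip1, a PDZ scaffold of GluA2 and GluA3, had 132 and 154 normalized counts in WT against 370 and 565, and the other was Nsf, an ATPase of membrane fusion.

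Markers of the other cells such cultures can hold also differed. The summed FPKM of 10 neuron markers, 9 of them tested, was 23.1 and 26.5 in WT, and 31.5 and 30.8 in the KO-labelled libraries, with Tubb3 and Dcx higher and Gad1 lower at an unadjusted p under 0.05. Rbfox3, the nuclear protein NeuN, was at 1.07 and 0.92 normalized counts in WT against 55.7 and 1.80. Snap25, a protein of synaptic vesicle fusion, was at 0 in both WT libraries and at 1.07 and 2.70 normalized counts in the KO-labelled libraries. Of 5 oligodendrocyte markers 0 passed, Mog and Mag were at 0 in at least 1 library, and their sum, set mainly by Cnp, was 65.4 and 97.3 FPKM in WT, and 61.4 and 13.5. The sum of 6 fibroblast and mural markers was 76.0 and 265 in WT, and 584 and 1408, set mainly by Acta2, smooth muscle actin. Of these markers Acta2 was higher at an unadjusted p under 0.05, while the matrix protein gene Dcn and the pericyte gene Rgs5 were lower, and the median log2 difference of the list was -0.87, opposite in sign to the difference of its sum. All 4 markers of cycling cells were higher at an unadjusted p under 0.05, against 4.54% of all tested genes. Their sums were 1.59 and 7.31 FPKM in WT, and 17.3 and 34.7. Among them Ccnb1, cyclin B1, had 4.27 and 159 normalized counts in WT against 545 and 683. None of these lists held a gene with an adjusted p under 0.05 in limma, and their part in the differences of the auxiliary subunits was not tested.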

How the data were processed

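Paired-end Illumina reads were filtered and aligned to mm10 by the authors. The aligner, the counting program, its strand setting and the annotation release are not given in the sources used here. The authors deposited a table named for FPKM whose signal is a normalized count, the reads of a gene over 1 size factor per library (0.934 to 1.11). Division by the step of 1 read gave whole numbers for 100% of the values (tolerance 0.02), and these recovered reads were used for count models. The authors also deposited group means, log2 fold changes and p-values, which were not used.

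From recovered reads, table gene lengths and library totals, FPKM was calculated. Genotypes were compared with limma 3.58.1 in R 4.3.3 (variance trend, log2 of normalized count + 1, mean of at least 1, two-sided, Benjamini-Hochberg adjustment, no block), and with edgeR 4.0.16 and DESeq2 1.42.0 on recovered reads as alternatives. The scripts were checked on simulated counts. Positions and overlaps came from GENCODE M21, in which 25367 of the identifiers were found. Libraries with 1 label differed by more than sampling noise (median chi-square per gene 11.8 for WT and 41.7 for KO).

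All 10 members were named whatever their values, and from each other list the gene with the largest difference among those with a mean of at least 10, together with markers that move with a result. Pdgfra, Sox10, Olig1, Olig2, Tmem119, Mog, Mag, Dcn, Rgs5, Prrt1, Nptx1, Nptxr, Nsf, Tubb3, Dcx, Gad1, Snap25, Gfap, Aldoc and Xist were named after their values were seen. The same holds for Csf1r, Cx3cr1, P2ry12, S100b, Aqp4, Aldh1l1, Slc1a3 and Gja1. The members and lists were chosen with earlier results of these data known. Libraries were grouped by their titles. Precision is set by read depth at low genes and by 2 libraries per group elsewhere.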

Additional observations from a re-analysis of the deposited data

How the results depend on the processing

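The direction of Cacng5 and Cnih2 was negative under all 17 alternatives. Cacng5 kept an unadjusted p under 0.05 in 15 of them, Cnih2 in 9. The adjusted p of Cacng5 ran from 0.000726 (DESeq2) to 0.93 (without WT replicate 1), that of Cnih2 from 0.156 to 0.935. DESeq2 called 1104 genes at an adjusted p under 0.05, where limma called 0 and edgeR called 0 (2733 at an unadjusted p under 0.05). Members at an unadjusted p under 0.05 numbered 1 in place of 2 with a mean of at least 10, quantile normalization, eBayes without a trend or the replicate block, Cnih2 being lost each time, and 0 to 2 with a library left out. Over all genes, leaving out a library gave 273 to 1820 higher and 862 to 3026 lower genes (lowest without WT replicate 1, highest without KO-labelled replicate 1), 0 of them at an adjusted p under 0.05. The median over the members was -1.15 to -0.043 with a library left out.

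The sign turned under at least 1 alternative for 6 of the 8 members. Cacng4 was 0.27 with quantile normalization, 0.0039 with edgeR, 0.023 with DESeq2 and -1.02 to 0.86 with a library left out. With a library left out, Cacng8 ran from -0.24 to 0.49, Cacng7 from -0.62 to 0.29, Cnih3 from -0.38 to 1.56, Gsg1l from -1.82 to 0.70 and Shisa9 from -4.51 to 0.43. The cause was not tested. Quantile normalization moved the median log2 difference of all genes from -0.07 to 0.06, and under it Cacng5 was at -2.60 and Cnih2 at -1.23.

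The replicate numbers are shared between the labels. Deviations of same-numbered libraries had a correlation of -0.08 over the tested genes, so these deviations did not rise and fall together across genes. With so few libraries, this value cannot show whether same-numbered libraries were prepared together, which was not tested. The replicate block gave 762 higher and 1821 lower genes, and 0 at an adjusted p under 0.05. At 5 to 29 reads a library, differences of Gsg1l and Cnih3 are limited by depth, and Cacng2 could not be tested.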
